A study of Mus musculus with 6 samples.

Results

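The lung of C57 mice exposed to cigarette smoke was compared with the lung of unexposed C57 mice, each on 1 Affymetrix expression array. These are the 2 arrays of the series titled for C57, out of 6 in all, and they were chosen by their titles and not by any measured value. The other 4 arrays hold the same pair for DBA and ICR, so that the series has 1 control and 1 smoked array in each of 3 strains. Exposure ran for 4 weeks at 3 cigarettes a day, on 5 days a week. The control arrays are labelled as normal lung and carry no exposure. Strains are named as in the labels, and the sources used here do not give the substrain, age or sex of the mice. Every title carries the number 1 for its mouse, and the number of animals behind an array was not stated. With 1 array a side the C57 difference has no replicate check and no test. Every difference below therefore describes these 2 arrays, and "higher" and "lower" mean the smoked array against the control array.

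Polycyclic aromatic hydrocarbons of tobacco smoke bind the aryl hydrocarbon receptor, a ligand-activated transcription factor that pairs with ARNT and switches on cytochrome P450 genes of the Cyp1 family. Oxidants and quinones in smoke release NRF2 (Nfe2l2), a transcription factor whose targets make glutathione, reduce quinones and repair oxidised thiols. In lung these enzymes act mainly in the airway and alveolar epithelium, and smoke is also known to draw macrophages and neutrophils into the airspaces.

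Values are the deposited probe set intensity on a linear scale. A difference is that of log2(intensity + 8.05) after quantile normalization over the 6 arrays, so a log2 difference of 1 is 2-fold on that scale, and the added constant understates the change of dim probe sets. The C57 arrays had the closest median intensities of the 3 pairs, 60.1 in control and 60.5 in smoked lung, against 68.7 and 84.8 in DBA and 52.2 and 25.9 in ICR. The ratio of the 3' to the 5' probe set for Actb was 2.75 in C57 control and 2.51 in C57 smoked lung. In control and smoked lung it was 1.46 and 1.66 in DBA, and 1.63 and 4.75 in ICR. The same ratio for Gapdh was 1.69 and 1.38 in C57, which lie farther apart than the 0.967 and 0.952 of DBA. In ICR it was 1.11 and 2.39. The ICR smoked array thus had the highest ratios, and 28.7% of its values lay below the added constant. It enters every ICR difference below, and its part in them was not tested. Lung markers were abundant on both C57 arrays. Sftpc, the surfactant protein of alveolar type II cells, stood at 9123 in control and 10344 in smoked lung. It was the brightest probe set on both arrays, and scaling gives the brightest probe set of every array the same value, so its scaled difference carries no information. Scgb1a1, the secretoglobin of club cells, stood at 8040 and 9719. Ager, a marker of alveolar type I cells, stood at 5928 and 6472.

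Few probe sets differed between the C57 arrays. After the filter on low signal 7453 probe sets remained, and the 2 arrays correlated across them at 0.972. The median log2 difference was -0.01 and its SD over probe sets was 0.34. At least 2-fold higher were 57 probe sets, 0.765% of those kept, and at least 2-fold lower were 33, or 0.443%. Counted by gene, with 1 probe set for each of 5735 genes, 36 genes (0.628%) were at least 2-fold higher and 18 (0.314%) at least 2-fold lower. Over the 5735 genes the median was -0.02 and 46.8% lay above 0, the values beside which the gene lists below are given. The same threshold was passed by 1.21% of probe sets in either direction in C57, by 3.05% in DBA and by 6.48% in ICR.

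Signal strength moved with these counts. Among the 1864 kept probe sets of lowest mean signal, whose median intensity was 53.4, 34 were 2-fold higher and 22 lower, or 3.0%. Among the 1863 of highest signal, with a median of 662, 8 were higher and 0 lower, or 0.429%. Of the 90 probe sets past 2-fold, 11 had a C57 value below the added constant. Of the same 90, 38 carried a suffix letter s, x, f, g, i or r, grouped here and below as possible cross-hybridization. The letters i and r mark limits in how probes were chosen, so for them that name is loose. Among all 7453 kept probe sets 1378 carried such a suffix, which is a smaller share. The plot of difference against intensity shows both the widening at low signal and the genes that stand clear of it. How much of the count at low signal is measurement error was not tested.

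**Figure D1:**
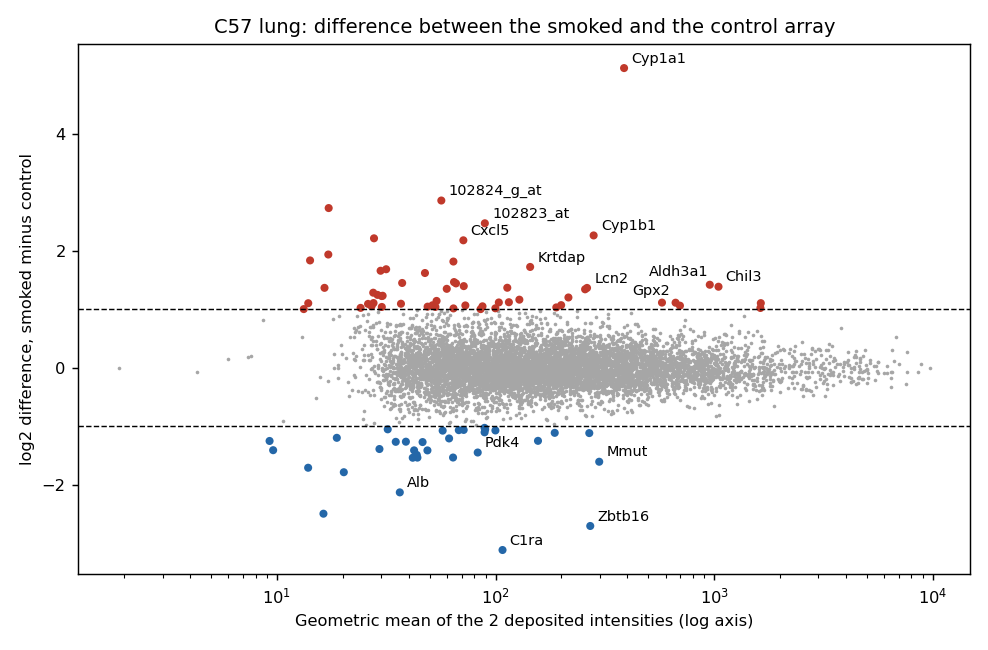
The log2 difference, smoked minus control, of each of the 7453 kept probe sets is plotted against the geometric mean of its deposited intensities on the 2 C57 arrays (log axis). Red points are at least 2-fold higher, blue points at least 2-fold lower and dashed lines mark 2-fold, with Cyp1a1 at 5.12 far above all others and C1ra at -3.11 and Zbtb16 at -2.70 the lowest.

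Targets of the aryl hydrocarbon receptor included Cyp1a1 and Cyp1b1, the genes with the largest increases when each gene is represented by 1 probe set. Of 11 listed genes measured, 8 passed the filter and 4 of these were at least 2-fold higher, with 0 lower. Their median log2 difference was 0.81, against -0.02 over all 5735 genes, and it was 0.19 when no filter on low signal was used. Cyp1a1, the cytochrome P450 that oxidises polycyclic aromatic hydrocarbons, went from 58.8 in control to 2552 in smoked lung. That is a log2 difference of 5.12, or 34.7-fold, the largest of all kept probe sets. Its relative Cyp1b1 went from 124 to 638 (2.26). Aldh3a1, a dehydrogenase of aromatic aldehydes, went from 586 to 1557 (1.42). Nqo1, the quinone reductase that answers to both this receptor and NRF2, went from 36.2 to 120 (1.44). These 4 genes make up the upper end of the list, and a gap separates them from the other 4. Of those, the receptor Ahr stood at 0.16, its partner Arnt at 0.19, Nfe2l2 at 0.01 and Tiparp, an ADP-ribosyltransferase that curbs the receptor, at -0.07. Below the filter, Ahrr, the repressor of the receptor, was listed at 2.63 and 13.8, and Cyp1a2 at 14.2 and 7.21, so both were dim on both arrays. A second Aldh3a1 probe set, also below the filter, was listed at 14.1 and 85.7, and a second Nqo1 probe set at 29.6 and 58.2. A second, very dim Cyp1a1 probe set stood at 4.56 and 14.2.

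The receptor binds DNA at sites with the core GCGTG, so the promoters of Cyp1a1 and Cyp1b1 are shown with that core in capitals. The 250 bases upstream of each start are from RefSeq, build GRCm38.p6, written 5′ to 3′ on the gene's strand. For Cyp1a1 they are chr9:57697363-57697612 on the + strand and for Cyp1b1 chr17:79715062-79715311 on the - strand, where the core reads CACGC because it lies on the other strand.
Cyp1a1: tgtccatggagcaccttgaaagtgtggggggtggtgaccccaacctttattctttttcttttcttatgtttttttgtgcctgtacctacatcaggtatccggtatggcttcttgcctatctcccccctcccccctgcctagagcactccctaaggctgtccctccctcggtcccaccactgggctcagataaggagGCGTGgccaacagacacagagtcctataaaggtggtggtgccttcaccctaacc
Cyp1b1: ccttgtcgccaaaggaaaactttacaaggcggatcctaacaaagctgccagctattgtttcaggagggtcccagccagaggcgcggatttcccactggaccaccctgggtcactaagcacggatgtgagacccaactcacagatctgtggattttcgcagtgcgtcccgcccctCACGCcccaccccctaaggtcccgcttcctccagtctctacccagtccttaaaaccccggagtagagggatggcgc
Each window holds 1 match, which begins 54 bases before the start in Cyp1a1 and 76 bases before it in Cyp1b1. Searched on both strands, GCGTG occurs in 32.4% of the 32851 promoter windows of 300 bases in the RefSeq table. Among the 40 genes with the largest C57 differences, 26 had a window. The core was found in 4 of the 13 with higher values and in 6 of the 13 with lower values. A match describes the letters of the window, and binding was not measured. Bases more than 250 upstream of the start were not searched, so sites farther away are not covered.

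NRF2 targets lay mostly above 0, by less. Of 22 measured, 21 passed the filter, 1 was at least 2-fold higher and 0 lower, 16 (76.2%) lay above 0 and the median was 0.24. Nqo1 was the gene past 2-fold. Cbr3, a carbonyl reductase, went from 137 to 266 (0.91). Gclm and Gclc, the subunits of the enzyme that starts glutathione synthesis, differed by 0.65 and 0.42. Srxn1, which restores oxidised peroxiredoxins, went from 66.5 to 106 (0.57). Txnrd1, thioredoxin reductase, stood at 0.48, Me1, a source of NADPH, at 0.43, Hmox1, heme oxygenase, at 0.35 and glutathione reductase Gsr at 0.24. Apart from Nqo1, none of these reached 2-fold.

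Among antioxidant enzymes the glutathione peroxidase Gpx2 stood apart. It went from 464 to 958, a log2 difference of 1.11, and the same gene differed by 1.11 in DBA and 0.60 in ICR. Gpx2 was the 1 gene past 2-fold among the 13 antioxidant genes that passed, of 14 measured, whose median was 0.05. The superoxide dismutases were lower: Sod2, the mitochondrial form, went from 203 to 136 (-0.49) and Sod1, the cytosolic form, from 2932 to 2382 (-0.37). The Gpx2 promoter, chr12:76795555-76795804 on the - strand, is shown with its 1 match to TGANNNNGC in capitals. That pattern is looser than the core of the element that NRF2 binds.
Gpx2: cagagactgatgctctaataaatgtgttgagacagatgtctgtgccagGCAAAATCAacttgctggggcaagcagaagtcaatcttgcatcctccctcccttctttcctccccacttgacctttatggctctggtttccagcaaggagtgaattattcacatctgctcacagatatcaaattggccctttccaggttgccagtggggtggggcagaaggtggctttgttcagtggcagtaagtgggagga
The match begins 202 bases before the start and reads on the other strand. TGANNNNGC occurs in 41.3% of windows, in 4 of the 13 higher genes with a window and in 7 of the 13 lower ones. The Nqo1 window holds a match to neither GCGTG nor this pattern.

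Other enzymes of xenobiotic metabolism differed less. The glutathione S-transferases had 0 of 16 passing genes past 2-fold, of 18 measured, and a median of -0.05, with Mgst3 at 0.49 and Gstz1 at -0.28. Aldehyde and aldo-keto enzymes had a median of -0.02 over 12 of 14 genes. Akr1b8, an aldo-keto reductase, went from 448 to 626 (0.53), and Adh7, an alcohol dehydrogenase of epithelia, from 612 to 830 (0.49). Of 14 lung P450s and other phase 1 enzymes, 11 passed, 9 of them below 0, with a median of -0.13. The 1 past 2-fold was Ces1g, a carboxylesterase, from 56.8 to 134 (1.05). In DBA the corresponding medians were 0.45 for the S-transferases, 0.34 for the aldehyde enzymes and 0.29 for the P450s, and in ICR they were -0.05, -0.00 and 0.06. These differences between pairs were not tested for the lists here or below.

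**Figure D2:**
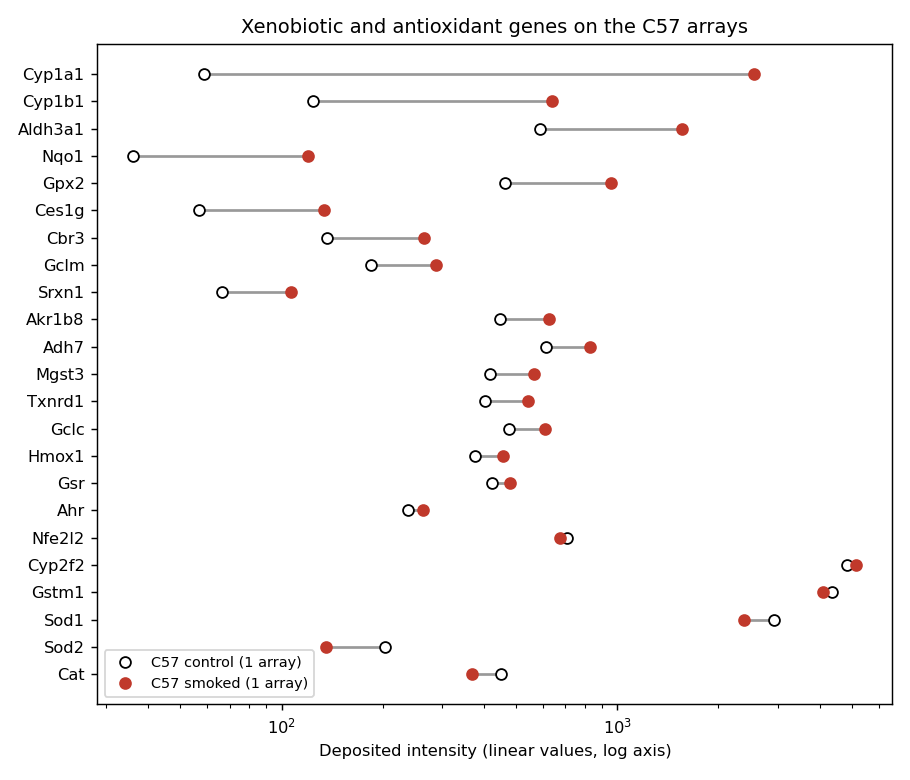
Deposited intensity (log axis) of 23 xenobiotic and antioxidant genes on the C57 control array (open circles) and the C57 smoked array (filled circles), 1 array each, before scaling. Cyp1a1 moves from 58.8 to 2552 and Cyp1b1 from 124 to 638, while Ahr, Nfe2l2 and Gstm1 nearly overlap.

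Among genes of inflammation, the chemokine Cxcl5 was the largest, and most others moved little. Cxcl5, which attracts neutrophils and is made by lung epithelium, went from 29.2 to 174, a log2 difference of 2.18, with 2.26 in DBA and 0.12 in ICR. Of 23 chemokines measured 11 passed, and 10 of these were above 0, with a median of 0.12. Ccl6, a chemokine of myeloid cells, went from 56.5 to 121 (0.93). Cxcl1 stood at 0.82, from 5.07 to 14.8, where the control value lies below the added constant. Of 19 cytokines only 6 passed, none of them past 2-fold. Il1b was lower, from 61.0 to 37.7 (-0.56).

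Macrophage markers lay mostly above 0, and neutrophil markers mostly below. Of 14 alveolar macrophage markers 12 passed, 10 of them above 0 (83.3%, against 46.8% of all genes), with a median of 0.32. Chil3, a chitinase-like lectin secreted by alveolar macrophages, went from 660 to 1663 (1.38) and was the 1 marker past 2-fold. Lgals3, galectin-3, went from 349 to 568 (0.75) and Cd68, a lysosomal glycoprotein of macrophages, from 93.2 to 149 (0.62). Ctsk stood at 0.49, Mrc1 at 0.46 and Mmp12, the macrophage elastase, at -0.22. In bulk lung, more cells of a type and more RNA per cell cannot be told apart. Monocyte and other macrophage markers had a median of 0.22 over 12 of 15 genes, none past 2-fold, with Plac8 at 0.94 and Tyrobp, a signalling adaptor of myeloid cells, at 0.92. Lysosomal cathepsins had 13 of 16 passing genes above 0, of 17 measured, and a median of 0.28. Among them Ctsd went from 1039 to 1825 (0.88) and Ctss from 936 to 1344 (0.58).

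The 11 neutrophil markers that passed, of 15 measured, had 8 below 0 and a median of -0.08. S100a8, a calcium-binding protein that fills neutrophils, stood at 400 in control and 376 in smoked lung (-0.01), and S100a9 at 166 and 155 (-0.06). The summed intensity of the 11 was 1872 in control and 1877 in smoked lung. The exception was Lcn2, lipocalin-2, an iron-scavenger protein that epithelium makes too, which went from 162 to 424 (1.36). A second kept probe set of Lcn2 stood at -0.26, so the gene's probe sets disagreed. The neutrophil list had a median of -2.55 in DBA and -0.29 in ICR, and S100a8 differed by -5.05 and -0.67 there.

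B cell and immunoglobulin genes lay mostly above 0. Of 16 B and plasma cell markers 13 passed, 12 above 0 (92.3%), with a median of 0.45. Ms4a1, the B cell surface protein CD20, went from 130 to 276 (1.03), while its second probe set stood at 0.17. Ighd stood at 0.74, the receptor Cd22 at 0.71, Fcer2a, the low-affinity IgE receptor, at 0.68 and Cd79a, a signalling chain of the B cell receptor, at 0.53. Of 73 probe sets with an immunoglobulin heavy or light chain symbol, a set chosen after the values were seen, 34 passed. In C57, 31 of these were above 0, 6 at least 2-fold higher and 0 lower, with a median of 0.58. Their summed intensity went from 8411 to 12289. In DBA 25 of the 34 were at least 2-fold lower, with a median of -1.64, and in ICR 2 were, with a median of -0.25. Immunoglobulin probe sets share sequence, and many carry a cross-hybridization suffix, so they are not separate measurements. T and NK cell markers had 3 of 8 passing genes above 0, of 20 measured, and a median of -0.20, which was -0.67 with a stricter filter on low signal and -0.0070 without one.

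Genes of stratified epithelium were also among the largest increases. Krtdap, a protein of differentiating keratinocytes, went from 74.4 to 279 (1.72), Krt13, a keratin of oesophagus and other internal stratified epithelia, from 160 to 413 (1.34), and Krt4, its keratin partner, from 400 to 835 (1.11). A second Krt13 probe set stood at 1.20. Calm4, a calmodulin-like protein of keratinocytes, went from 34.0 to 105 (1.35). Of the 23 listed markers of oesophageal and tracheal epithelium 11 passed, 10 above 0, with a median of 0.41, and the summed intensity of those 11 went from 5124 to 6802. Below the filter, Sprr3, a protein of the cornified layer, was listed at 5.71 and 45.2, and Krt5, the keratin of basal cells, at 14.5 and 6.19. In DBA the median of this list was -0.27, with Krtdap at -1.77. Whether the C57 lungs differed in attached airway or oesophageal tissue was not tested.

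Muscle genes went the other way. Of 24 skeletal muscle markers 16 passed, 2 of them above 0 (12.5%, against 46.8% of all genes) and none past 2-fold, with a median of -0.47. Pgam2, the muscle phosphoglycerate mutase, went from 155 to 75.5 (-0.88), Myh1, a fast myosin heavy chain, from 457 to 248 (-0.78) and Acta1, skeletal actin, stood at -0.47. Cardiac muscle markers had 17 of 19 passing genes below 0, of 21 measured, and a median of -0.24, with Ryr2, the calcium release channel of heart, at -0.72 and Myh6 at -0.44. Smooth muscle and pericyte markers had 12 of 13 passing genes below 0, of 14 measured, and a median of -0.18, with Tpm2 at -0.74, Myh11 at -0.56 and Acta2 at -0.17. The summed intensity of the genes that passed went from 8898 to 6236 for skeletal, from 10253 to 8230 for cardiac and from 8284 to 6673 for smooth muscle. Red blood cell genes had 7 of 9 passing genes above 0, of 13 measured, and a median of 0.35, with Hba-a1, alpha globin, at 0.53 and Alas2, which starts heme synthesis in red cells, at 0.63. The part that heart, vessel or airway muscle and blood left in the lung had in any other difference was not tested.

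Markers of resident lung epithelium had no member past 2-fold. Type II cell markers had a median of 0.24 over 7 of 8 genes, close to that of NRF2 targets and monocyte markers. The fatty acid transporter Cd36, which is not confined to these cells, was highest at 0.56. The 7 include Sftpc, whose scaled difference carries no information. Type I cell markers were all above 0 among the 5 measured, with a median of 0.14 (0.29 without scaling between arrays) and Emp2 highest at 0.66, from 426 to 652. Club and goblet cell markers had a median of 0.03 over 8 of 10 genes, from -0.74 for Chad to 0.70 for Clca1, a secreted protein of goblet cells. Reg3g, an antimicrobial lectin of airway epithelium, went from 432 to 661 (0.66). Ciliated cell markers had a median of -0.04 over 5 of 7 genes.

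**Figure D3:**
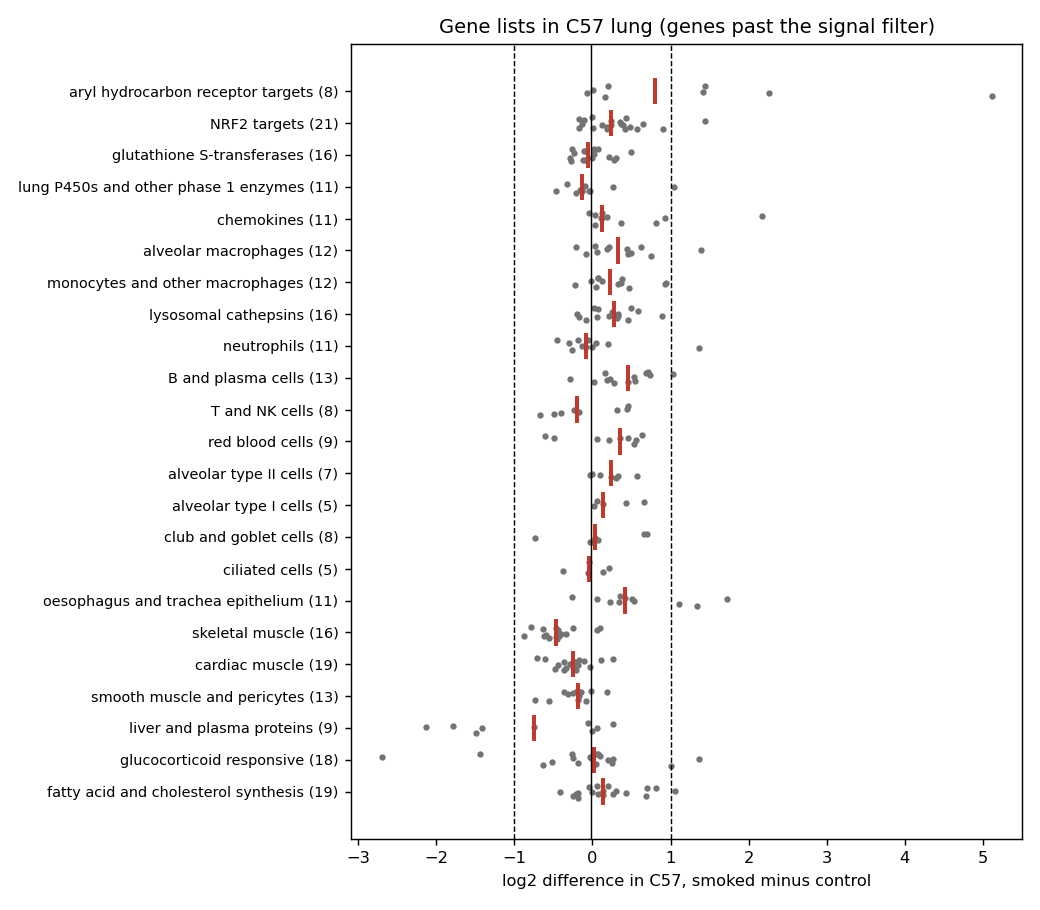
Each point is the C57 log2 difference, smoked minus control, of 1 gene that passed the signal filter, in 23 gene lists, with the number of such genes in brackets. Red bars are list medians, the solid line is the median of all genes (-0.02) and dashed lines mark 2-fold. Aryl hydrocarbon receptor targets (0.81) lie highest, and skeletal muscle (-0.47) and liver and plasma proteins (-0.75) lowest.

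The largest decrease by gene was Zbtb16, which encodes PLZF, a zinc finger transcription factor that glucocorticoids are known to induce. It went from 751 in control to 97.9 in smoked lung, a log2 difference of -2.70. In the other strains Zbtb16 stood at 414 and 438 in DBA (-0.22) and at 549 and 414 in ICR (0.48 after scaling). By deposited intensity the C57 smoked array was thus the lowest of the 6 and the C57 control array the highest. This probe set carries a suffix that marks possible cross-hybridization. A second Zbtb16 probe set, below the filter, was listed at 26.1 and 6.43 in C57. Pdk4, the kinase that holds back pyruvate dehydrogenase and is likewise induced by glucocorticoids and fasting, went from 152 to 45.3 (-1.45). Glucocorticoid responsive genes lay on both sides of 0. Of 19 measured 18 passed, 2 at least 2-fold higher and 2 lower, 9 above 0 and 9 below, with a median of 0.02. Of the 2 higher, Lcn2 is described above and the other was below the added constant on the control array. Smaller increases were those of the transcription factor Cebpb at 0.27 and the inhibitor of NF-kappaB Nfkbia at 0.24. Among the lower members, the metallothionein Mt1 stood at -0.64, the clock gene Per1 at -0.52 and Fkbp5, a chaperone of the glucocorticoid receptor, at -0.18. Clock genes had a median of 0.14 over 13 of 15, with Csnk1e at 0.83 and Nr1d2 at -0.57. Immediate early genes had 13 of 20 passing members below 0, of 23 measured, and a median of -0.10, with the nuclear receptor Nr4a1 at -0.75.

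Plasma proteins of the liver were lower, at low signal. Alb, albumin, went from 98.7 to 13.5 (-2.13), Mup3, a major urinary protein, from 51.3 to 7.96 (-1.78), Serpina1e from 84.5 to 22.5 (-1.49) and Serpina1b from 79.6 to 22.6 (-1.41); the last pair encode forms of alpha-1 antitrypsin with near-identical sequence. Of 21 listed genes 9 passed, with 4 at least 2-fold lower (0.314% of all genes were), 0 higher and a median of -0.75. Below the filter, Apoa1 was listed at 30.3 and 4.37. The filter uses the mean of all 6 arrays. Alb, Mup3, Serpina1e and Serpina1b were brightest on the DBA smoked array, at 1455, 732, 1439 and 1363, and those values count toward their passing. The list median was -0.41 without a filter, -0.00 without probe sets of possible cross-hybridization and -0.03 with a stricter filter on low signal. Hp, haptoglobin, which lung makes itself, stood at 5465 and 5641 (-0.05). In DBA the same genes differed the other way, with Alb at 5.48, Mup3 at 5.63 and a list median of 1.06, and the ICR median was -0.03. Ctrb1, a pancreatic protease precursor, went from 123 to 33.1 (-1.53) in C57. The part of RNA from outside the lung in these values was not tested.

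The other decreases among the 20 largest came from genes of varied function. Mmut, the mitochondrial methylmalonyl-CoA mutase, went from 549 to 162 (-1.60). Arg2, the mitochondrial arginase, went from 62.2 to 19.6 (-1.26), with -0.67 in DBA and -0.37 in ICR. Cyp2c39 stood at -1.21 and Cyp4a12b, a fatty acid hydroxylase, at -1.06. The forkhead factor Foxq1 stood at -1.41, the huntingtin partner Hap1 at -1.25, the kinase subunit Camk2b at -1.20 and the ubiquitin ligase Arih1 at -1.11. Gon4l stood at -1.07, Nectin3, an adhesion protein, at -1.05 and Clgn, a chaperone of the endoplasmic reticulum, at -1.05. The Nectin3 value came from 1 probe set, and another kept probe set of the gene stood at 0.31. Arih1 likewise had another kept probe set of opposite sign, at 0.17. Just outside 2-fold were Alox15, the 12/15-lipoxygenase, at -0.97 and Dll1, a Notch ligand, at -0.96.

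Of the remaining large increases, Timp2, an inhibitor of matrix metalloproteinases, went from 66.2 to 194 (1.37). It was the 1 gene at least 2-fold higher in a list of 22 matrix proteases and inhibitors, of which 14 passed, with a median of 0.10. Snw1, a splicing factor, went from 35.3 to 118 (1.46). Fasn, fatty acid synthase, went from 493 to 988 (1.06). Its list of 22 lipid synthesis genes had 19 that passed and a median of 0.13, with the cholesterol enzymes Lss at 0.82 and Fdps at 0.70 and the desaturase Scd1 at 0.69. Gpatch2 stood at 1.36, Gdf9, a growth factor of oocytes, at 1.24, Chaf1a, a chromatin assembly factor, at 1.23, Mtx1, a mitochondrial outer membrane protein, at 1.12 and C030006K11Rik at 1.11. The other kept probe set of Mtx1 stood at 0.00080. Gpatch2 was listed at 7.99 on the control array, below the added constant.

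Most listed pathways showed no gene past 2-fold. Of the 51 lists with at least 4 passing genes, 36 held none, and 13 had a median of 0.20 or more in size. The 639 distinct genes of all lists that passed held 16 at least 2-fold higher (2.50%) and 7 lower (1.10%), against 0.628% and 0.314% of all genes. The lists were chosen with earlier results known, so these shares support nothing about them. Nos3, the nitric oxide synthase of endothelium, went from 37.3 to 81.4 (0.91) in a list with a median of 0.10 over 18 of 24 endothelial genes, and Kdr stood at 0.47. Tgfb1 went from 124 to 232 (0.85) among 24 of 31 passing TGF-beta pathway genes with a median of 0.12. Collagen and elastic fibre genes had a median of 0.13 over 28 of 30, with Loxl1 at 0.61 and Col1a2 at 0.55. Medians lay between 0.02 and 0.06 for heat shock chaperones, the unfolded protein response, interferon response, p53 and DNA damage, cell cycle, proteasome and respiratory chain, with no member of these past 2-fold. Without scaling between arrays the p53 and DNA damage median was -0.06.

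Probe sets of 1 gene did not always agree. Several kept probe sets represented 883 genes, and 29 of these genes held 31 of the 2-fold probe sets. For 19 of the 31 every other probe set of the gene had the same sign, for 4 another was also past 2-fold, and for 0 was another past 2-fold the opposite way. Krt13 and Ighg3 supplied those 4. C1ra, a complement protease, showed the widest gap, with -3.11 for one probe set, from 384 to 30.1, and -0.43 for the other, from 407 to 283.

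The C57 differences were set beside those of DBA and ICR, whose controls are separate arrays. Of all 7453 kept probe sets, 51 were 2-fold higher and 176 lower in DBA, and 208 were higher and 275 lower in ICR. Of the 57 probe sets 2-fold higher in C57, 7 were also 2-fold higher in DBA. That is 12.3% of the C57 set and 13.7% of the 51 in DBA, and 16 (28.1% of the C57 set) were 2-fold lower there. With ICR the shared number was 5, which is 8.77% of the C57 set and 2.40% of the ICR set, and 5 were lower. Of the 33 probe sets 2-fold lower in C57, 2 (6.06%) were also lower in DBA and 8 (24.2%) higher. In ICR 2 of them (6.06%) were lower and 3 (9.09%) higher. Cyp1a1, Cyp1b1 and Aldh3a1 were the genes at least 2-fold higher in all 3 pairs. Cyp1a1 differed by 3.69 in DBA and 4.00 in ICR, Cyp1b1 by 2.33 and 1.41 and Aldh3a1 by 2.40 and 1.80. Across the 7453 probe sets the C57 differences correlated with those of DBA at -0.16 and with those of ICR at -0.15, as a description, since probe sets are not independent. Of the 20 largest increases by gene, 6 were above 0 in DBA and 11 in ICR, and of the 20 largest decreases 9 were below 0 in DBA and 10 in ICR.

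**Figure D4:**
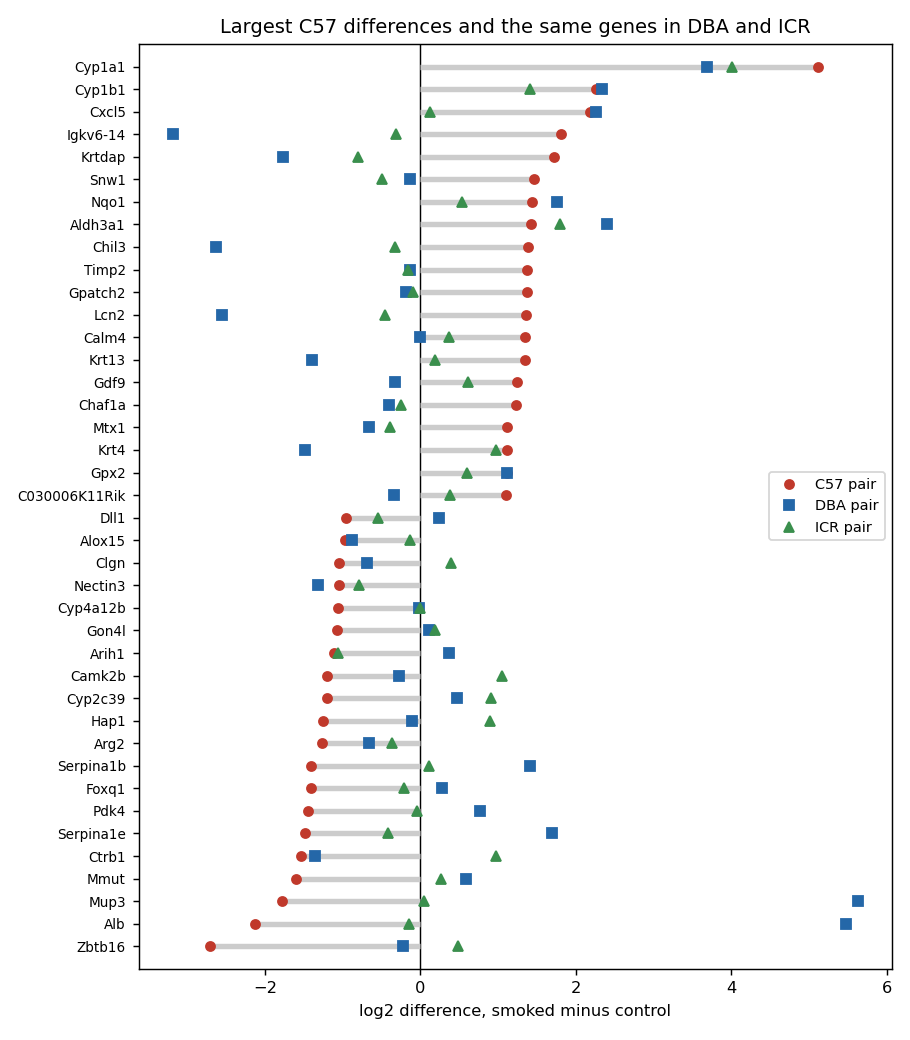
The 20 largest increases and 20 largest decreases by gene in C57 (circles, with grey bars from 0) beside the same genes in the DBA pair (squares) and ICR pair (triangles), as log2 difference, smoked minus control. Cyp1a1, Cyp1b1 and Aldh3a1 lie to the right in every pair, while Chil3, Lcn2 and Igkv6-14 lie to the left in DBA and Alb and Mup3 far to the right.

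Whether the C57 difference departed from the mean of the other pairs was tested with limma across all 7453 probe sets, 2-sided, with Benjamini-Hochberg adjustment. The fit has 1 residual degree of freedom, which comes from the DBA and ICR pairs, so the single C57 pair is assumed to vary as those do. The variance prior, drawn from all probe sets, carries 36.7 degrees of freedom. Each SE below therefore rests mostly on other probe sets and does not measure how far a probe set's own DBA and ICR pairs lie apart. For Alb those pairs stood at 5.48 and -0.15. At an adjusted p below 0.05, 7 probe sets (0.0939%) had a higher difference in C57 and 3 (0.0403%) a lower one, and 224 had an unadjusted p below 0.05. The number of calls depended on the settings. It was 0 without the filter, without scaling between arrays or with a variance prior that has no trend, and 25 higher and 11 lower ones were called when arrays were scaled to a common median. All 10 were at least 2-fold in C57 itself, and for 8 of them DBA had the opposite sign and lay farther from C57 than ICR did.

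The called decreases were C1ra, Zbtb16 and Alb. One probe set of C1ra was lower in C57 than the mean of the other pairs by a log2 difference of -3.58 (SE 0.57, adjusted p = 0.00192), and its other probe set was not called. Zbtb16 was lower by -2.83 (SE 0.51, adjusted p = 0.00401), with -2.48 against DBA alone and -3.18 against ICR alone, so the gap was of like size to both. Alb was lower by -4.79 (SE 1.02, adjusted p = 0.0283), of which the DBA pair holds most, with -7.61 against DBA and -1.98 against ICR. Alb was listed at 1455 on the DBA smoked array and no higher than 98.7 on any other. That value counts toward both its passing the filter and the tested difference, so this p-value does not speak for the C57 pair itself. The called increases with a gene symbol were Chil3 at 2.86 (SE 0.54, adjusted p = 0.00923), Lcn2 at 2.87 (SE 0.59, adjusted p = 0.0239), Ighm at 3.60 (SE 0.73, adjusted p = 0.0206), Igkv6-14 at 3.56 (SE 0.74, adjusted p = 0.0239) and Igkv6-23 at 2.35 (SE 0.52, adjusted p = 0.0483). For Chil3 the gap was 4.01 against DBA and 1.71 against ICR. The called probe sets of Chil3, Lcn2 and the immunoglobulin genes were above 0 in C57 and below 0 in both other pairs. The Ighm call came from 1 probe set, listed at 9.57 and 80.7 in C57 (2.21). Its other 3 kept probe sets ran from 0.27 to 0.87 in C57 and were not called. The 2 called probe sets without a gene symbol, shown by their IDs in the plots, were higher by 4.75 (SE 0.80, adjusted p = 0.00259) and 4.40 (SE 0.76, adjusted p = 0.00274). They went from 33.0 to 242 and from 16.7 to 191 in C57.

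The xenobiotic genes were not among the calls. Cyp1a1 was 1.27 higher in C57 than the mean of the other pairs (SE 0.55), Cyp1b1 0.39 (SE 0.59), Nqo1 0.30 (SE 0.74) and Gpx2 0.26 (SE 0.52), and Aldh3a1 stood at -0.68 (SE 0.49), each at an adjusted p = 1 by limma. The 1.27 of Cyp1a1 is more than 2-fold, and Krtdap, 3.01 higher in C57 (SE 0.69), was not called either. With SEs of this size, differences between strains well above 2-fold could be missed for these genes.

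**Figure D5:**
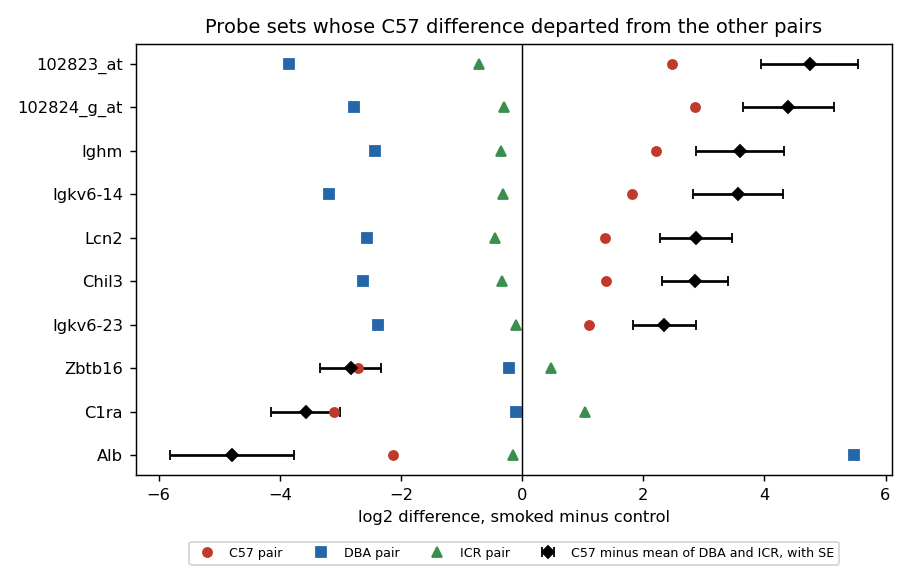
For the 10 probe sets called by limma, circles, squares and triangles give the log2 difference, smoked minus control, of the C57, DBA and ICR pairs, and diamonds with bars give C57 minus the mean of DBA and ICR with its SE. For Zbtb16 and C1ra the C57 circle lies away from both other pairs, whereas for the others the DBA square lies farthest out on the opposite side.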

How the data were processed

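Lung total RNA, extracted with Trizol and labelled with biotin per the labels' protocols, was measured on 6 Affymetrix arrays with 12488 probe sets. The deposited values are probe set intensity on a linear scale. How the authors summarised and scaled them was not stated. For arrays, their number limits the precision.

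From these values, 66 control probe sets were left out, log2(intensity + 8.05) was taken (the constant is the 20th percentile of all values), arrays were quantile normalized, and a probe set stayed if its mean exceeded the 40th percentile of means. Genes were named from the platform annotation, matched to RefSeq by gene ID for 10839 probe sets: 10855 have 1 symbol, 396 several and 1237 none. A gene was represented by its brightest probe set that has a single symbol.

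Named genes are the 20 largest C57 differences by gene in each direction, list members past 2-fold or up to 4 with the largest difference, called probe sets, and genes whose probe sets disagree; a few others were named after their values were seen. The members and gene lists were chosen with earlier results of these data known. Differences within C57 have no test. The departure of C57 from DBA and ICR was tested in R 4.3.3 using limma 3.58.1 (strain, smoke and smoke in C57, variance trend); the script was tested on simulated data. Tables used Python 3.11.15 and pandas 2.3.3, plots matplotlib 3.10.9. Alternatives changed the constant, filter, scaling, threshold, probe sets, probe set per gene and variance prior.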

Additional observations from a re-analysis of the deposited data

Results flagged for a closer look

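A test of the difference between the C57 pair and the mean of the DBA and ICR pairs (limma, Benjamini-Hochberg over 7453 probe sets) singled out 10 probe sets. The C57 log2 difference exceeded that mean by 4.75 and 4.40 for the 2 without a gene symbol and by 3.60 for 1 probe set of Ighm. It did so by 3.56 for Igkv6-14, 2.87 for Lcn2, 2.86 for Chil3 and 2.35 for Igkv6-23. It fell short of that mean for Alb (-4.79), C1ra (-3.58) and Zbtb16 (-2.83). C1ra and Zbtb16 lay farther from ICR than from DBA, and the other 8 lay farther from DBA. The test rests on 1 residual degree of freedom, and its SEs draw mostly on the other probe sets.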

How the results depend on the processing

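With 1 array a side, leaving out either C57 array leaves no C57 difference. No paired analysis was possible because the groups share the single replicate number 1, apart from the strain term that the limma fit already holds. Against the main 57 probe sets higher and 33 lower in C57, the counts were 27 and 14 with the constant at the 40th percentile, 231 and 177 without a filter, 20 and 11 with the filter at the 60th percentile, 327 and 234 at 1.5-fold, and 14 and 7 at 3-fold. Without probe sets of possible cross-hybridization 12 were lower. Keeping only probe sets above the constant on both C57 arrays, chosen after seeing the data, gave 51 and 28.

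Against 7 higher and 3 lower responses in C57, the limma counts were 0 and 0 without a filter, without scaling and with a prior without trend, and 25 and 11 with arrays scaled to a common median. There were 2 higher with the filter at the 60th percentile, 0 higher with a robust prior, and 1 lower without probe sets of possible cross-hybridization. The causes were not tested. The response fit was not run with the filter on the C57 arrays alone or with the C57 pair normalized alone, and against 1 other pair it leaves values with no test.

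List medians turned sign for the TGF-beta pathway (-0.10) and neural and neuroendocrine cells (-0.015) without a filter, endothelium (-0.0082) with the filter at the 60th percentile, and the circadian clock (-0.10) without probe sets of possible cross-hybridization, which also turned Nectin3 (0.31). Other medians moved by more than 1.5 times: monocytes to 0.35 with the filter at the 60th percentile, B and plasma cells to 0.30 without a filter, and collagens to 0.03 without scaling. Mtx1 and Arih1 stood at 0.56 and -0.47 when a gene's probe sets were averaged. Of 40 named genes, 21 stayed on their side of 2-fold in every alternative that gave them a value. Alternatives that dropped a gene are not counted for it. Cyp1a1 had a value in 10 alternatives, Alb and Zbtb16 in 9 and Mup3 in 7. Cyp1a1 ranged from 4.66 to 5.27, Cyp1b1 from 2.05 to 2.34, Zbtb16 from -2.84 to -2.43 and Alb from -2.43 to -1.39. The Zbtb16 range leaves out the run without probe sets of possible cross-hybridization, which drops its kept probe set.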
